A study of Mus musculus with 14 samples.

Results

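The genes described here are 8 components of the Nodal signalling pathway, *Nodal*, *Gdf3*, *Tdgf1*, *Acvr2b*, *Foxh1*, *Lefty1*, *Lefty2* and *Cer1*, taken by symbol from the 23152 loci of each expression table. They were selected on the FPKM of *Lefty1* in the pair of libraries from day 4 of motor neuron differentiation, where it stood far higher in the library labelled KO. All 8 were found, each at 1 locus. Poly-A RNA-seq was performed on mouse embryonic stem (ES) cells, on the embryoid bodies (EBs) they form after 2, 4 and 6 days of culture with retinoic acid and the smoothened agonist SAG, and on newborn spinal tissue. The study asked how TAF9B, a subunit of core promoter complexes encoded on the X chromosome, takes part in neuronal gene expression. At each stage a library labelled WT came from the JM8 clone and a library labelled KO from the Taf9b_BG10 clone (TAF9B -/-), both of C57BL/6 background and both grown on layers of mouse embryonic fibroblasts before differentiation. Newborn spinal column was sequenced from wild type and TAF9B -/- mice, and newborn spinal cord from wild type mice. Each genotype in culture is thus 1 clone, and each condition is 1 library, so that clone, library and genotype cannot be told apart and no test was possible within a stage.

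Nodal is a secreted ligand of the TGFβ family that maintains the epiblast and induces mesoderm and endoderm in the early embryo. It binds activin receptors together with the co-receptor Cripto, the product of *Tdgf1*, and the activated SMAD proteins join FOXH1 on target genes. *Lefty1* and *Lefty2* are targets that encode secreted inhibitors of Nodal, and *Cer1* encodes a further secreted inhibitor made by anterior endoderm. Mouse ES cells express most of the pathway, and its inhibition is a known route toward neural fate.

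Expression is given as FPKM, a count of fragments corrected for transcript length and library size, which sets genes and libraries on a scale per length. Read counts were not used here and the depth behind each value is unknown. Libraries were scaled by the authors in pairs, and the ES cell library labelled WT, listed in 2 tables, differed between them by a near-constant factor of 1.09. *Taf9b*, the targeted gene, was at 0.537, 0.516, 1.96 and 1.37 FPKM in the libraries labelled WT of ES cells and EBs at days 2, 4 and 6, and at 3.06, 4.08, 4.27 and 4.01 FPKM in those labelled KO. At all 4 stages the library labelled KO was thus the higher, opposite to what the labels name. In spinal column it was at 6.65 and 3.31 FPKM in the libraries labelled WT and KO, and in spinal cord at 7.44 FPKM. These values cover the whole locus and do not show which exons the reads came from. Directions below refer to the labels alone.

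*Lefty1* (NM_010094, mm9 chr1:182865170-182868532) and *Lefty2* (NM_177099, chr1:182823250-182829233) lie on the same strand of chromosome 1. Their coding sequences are both 1107 bases long and identical at 91.9% of positions. Of all stretches of 50 bases in *Lefty1*, 26.6% also occur in *Lefty2* without a mismatch, so reads from these parts cannot be assigned to either gene by sequence. The share is 34.0% for stretches of 36 bases and 7.24% for stretches of 100 bases, and the read length was not known here. Other stretches differ between the genes, and how the authors' counting divided the reads was not examined. The part where the copies differ most is shown. It spans coding bases 35 to 124 of each gene in the GENCODE vM1 transcripts, with the 27 differing bases in capitals.
Lefty1: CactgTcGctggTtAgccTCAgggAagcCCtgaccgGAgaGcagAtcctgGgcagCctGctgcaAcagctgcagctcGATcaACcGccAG
Lefty2: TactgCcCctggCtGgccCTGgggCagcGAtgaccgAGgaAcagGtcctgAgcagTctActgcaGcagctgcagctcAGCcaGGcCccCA

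In the libraries labelled WT, 6 of the 8 genes had their lowest level of the time course at day 4, as did 24.9% of 13420 genes above 1 FPKM at any stage. Of the 6, 5 were more than 2-fold higher again at day 6, a course shown by 11.4% of all genes. These counts rest on the day 4 library labelled WT that the choice of the genes used, so nothing is read from them. *Lefty1* was at 68.4, 33.7, 1.80 and 43.3 FPKM in the libraries labelled WT of ES cells and days 2, 4 and 6. Its levels in the libraries labelled KO were 79.4, 52.6, 43.0 and 85.0 FPKM. The gap of 23.9-fold at day 4 is the value the choice rests on. From day 2 to day 4, *Lefty1* was 18.7-fold lower under the label WT and 1.22-fold lower under the label KO, across tables normalized separately. In order of level, the day 4 library labelled KO and the day 6 library labelled WT differed by less than the shift of 1.09 between tables, as did the ES cell and day 6 libraries labelled KO. With 1 library each there is no spread by which the other neighbours could be separated.

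**Figure D1:**
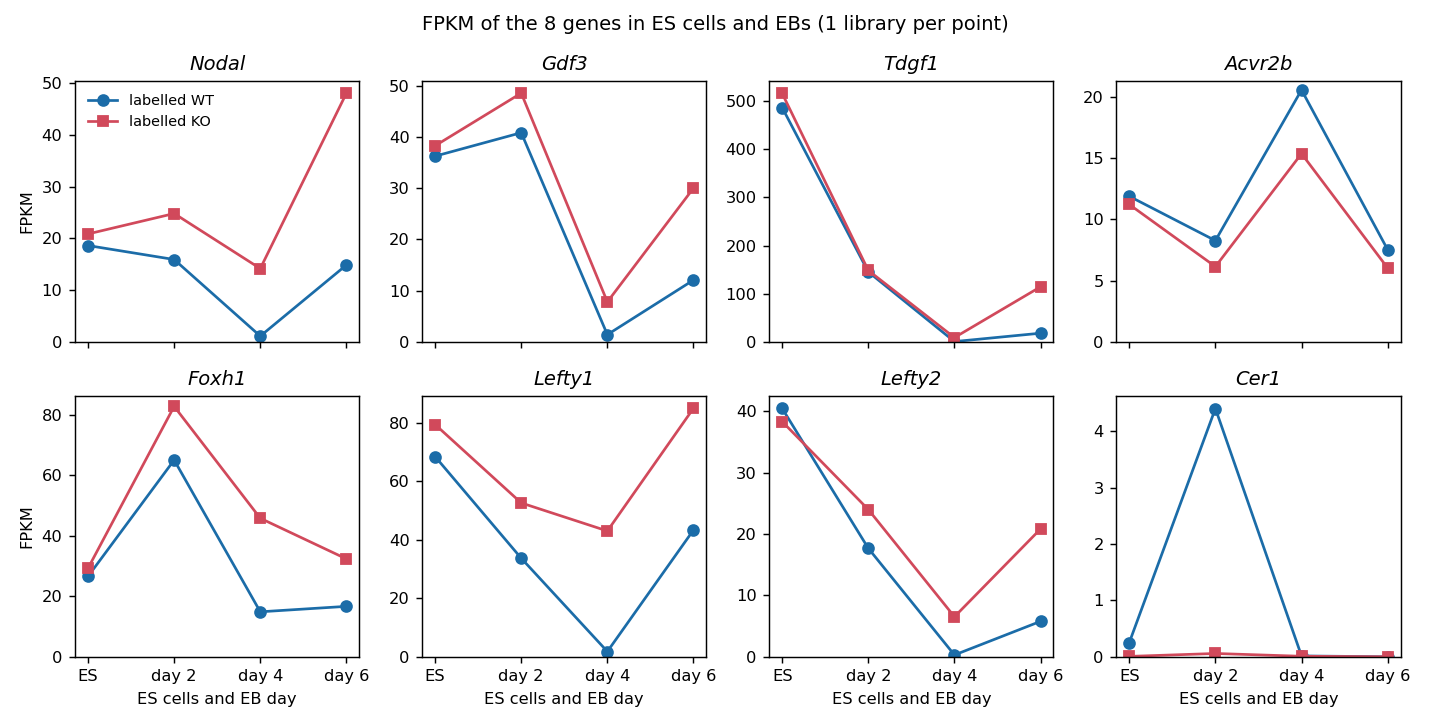
FPKM of the 8 genes (vertical axes, linear, starting at 0) in ES cells and in EBs at days 2, 4 and 6 (horizontal axis), with circles for libraries labelled WT and squares for libraries labelled KO and 1 library per point. *Nodal*, *Gdf3*, *Tdgf1*, *Foxh1*, *Lefty1* and *Lefty2* have their lowest value in the day 4 library labelled WT, *Acvr2b* has its highest there, and *Cer1* peaks at day 2 in the library labelled WT.

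The ligands also had their lowest value in the day 4 library labelled WT. *Nodal* (NM_013611, chr10:60880720-60888085) was at 18.6, 15.9, 1.08 and 14.8 FPKM in the libraries labelled WT and at 20.8, 24.8, 14.1 and 48.0 FPKM in those labelled KO. Its highest level of all 8 culture libraries was in day 6 EBs labelled KO, above that of ES cells. *Gdf3* (NM_008108, chr6:122555421-122560089), a related ligand of the same pathway, was at 36.2, 40.8, 1.38 and 12 FPKM in the libraries labelled WT. In those labelled KO it was at 38.3, 48.5, 7.78 and 30.0 FPKM, 6.24-fold lower at day 4 than at day 2. At day 6 *Gdf3* was below its ES cell level under both labels, and *Nodal* under the label WT only.

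The co-receptor gene covered a wide range. *Tdgf1* (NM_011562, chr9:110842112-110848662) went from 487 FPKM in ES cells to 145, 0.320 and 17.7 FPKM in the libraries labelled WT. The libraries labelled KO gave 516, 148, 8.62 and 114 FPKM. The highest and the lowest of its 8 values differ 1612-fold, and the libraries of both labels lay within 1.06-fold of each other until day 2. The annotation holds a processed copy of this gene, *Tdgf1-ps2*, whose reads may be shared with it, so its values are uncertain to that extent.

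*Acvr2b* (NM_007397, chr9:119311619-119342624), which encodes a type II activin receptor, moved the other way. It was at 11.9, 8.27, 20.6 and 7.53 FPKM in the libraries labelled WT and at 11.2, 6.14, 15.4 and 6.03 FPKM in those labelled KO. The day 4 value was the highest under both labels, 2.49-fold and 2.51-fold above day 2, and the library labelled KO was the lower of each culture pair, by at most 1.35-fold. *Foxh1* (NM_007989, chr15:76498737-76500303), the nuclear partner of the SMADs, peaked at day 2 rather than in ES cells. Its levels were 26.6, 65.0, 14.9 and 16.7 FPKM under the label WT and 29.3, 82.7, 45.8 and 32.3 FPKM under the label KO. It had no recovery at day 6 like that of the ligands.

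*Lefty2* went with *Lefty1* but took a changing part of their sum. It was at 40.5, 17.7, 0.295 and 5.78 FPKM in the libraries labelled WT and at 38.3, 24.0, 6.52 and 20.8 FPKM in those labelled KO. *Lefty1* made up 62.9% to 68.7% of the summed FPKM of both genes in the 4 libraries of ES cells and day 2, and 80.3% to 88.2% in the 4 libraries of days 4 and 6. These ranges do not overlap. The day 4 shares rest on the *Lefty1* values that the choice used, and on *Lefty2* at 0.295 FPKM under the label WT, so nothing is read from them. The day 6 libraries alone had 88.2% under the label WT and 80.3% under the label KO. Since the genes share part of their sequence, the division of reads between them is uncertain.

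*Cer1* (NM_009887, chr4:82527655-82531055) was the exception among the inhibitors. It was at 0.252 FPKM in ES cells and 4.40 FPKM at day 2 in the libraries labelled WT, and at 0.00710 and 0.0588 FPKM in those labelled KO. At day 4 it was at 0.0153 and 0.00927 FPKM, and at day 6 at 2.78e-05 FPKM under the label WT and listed at 0 under the label KO. The day 2 library labelled WT was thus the single culture library in which *Cer1* passed 1 FPKM.

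Within pairs, a gene was counted when its FPKM differed more than 2-fold and exceeded 1 in either library. In ES cells, 7 of the 8 genes were above 1 FPKM and none passed 2-fold in either direction, against 0.541% of all 12021 genes above 1 FPKM that were higher and 0.591% that were lower in the library labelled KO. Their log2 ratios, KO over WT, ran from -0.08 for *Acvr2b* to 0.21 for *Lefty1*. At day 2, none of 8 was more than 2-fold higher (1.19% of all genes) and *Cer1*, above 1 FPKM under the label WT alone, was lower (1.37% of all genes). *Nodal* and *Lefty1* had the highest ratios of that stage, both 0.64 on the log2 scale. The day 2 values of *Nodal* and *Lefty1* were 1.56-fold apart between the labels, below the limit but above the 95th percentile of all genes, 0.50.

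At day 4, the stage on which *Lefty1* was selected, 6 of 7 genes were more than 2-fold higher and none was lower in the library labelled KO, while 12.1% of all genes were higher and 4.44% lower. *Tdgf1* and *Lefty2* passed the filter through the library labelled KO alone, and nothing is read from this count. The log2 ratios were 4.75 for *Tdgf1*, 4.58 for *Lefty1*, 4.47 for *Lefty2*, 3.71 for *Nodal*, 2.49 for *Gdf3* and 1.62 for *Foxh1*, and -0.42 for *Acvr2b*. With 1 FPKM added to both values, those of the 6 higher genes ran from 1.56 for *Foxh1* to 3.97 for *Lefty1*, with 2.87 for *Tdgf1* and 2.54 for *Lefty2*. At day 6, 4 of 7 genes were more than 2-fold higher and none was lower, against 10.5% and 9.91% of all genes. The choice did not use the day 6 values of *Lefty1*. These libraries come from the same clones as the day 4 pair, however, and the genes were chosen with earlier results known. *Tdgf1* was 6.45-fold, *Lefty2* 3.61-fold, *Nodal* 3.24-fold and *Gdf3* 2.49-fold higher. *Lefty1* and *Foxh1* lay just within the limit at 1.96-fold and 1.94-fold.

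**Figure D2:**
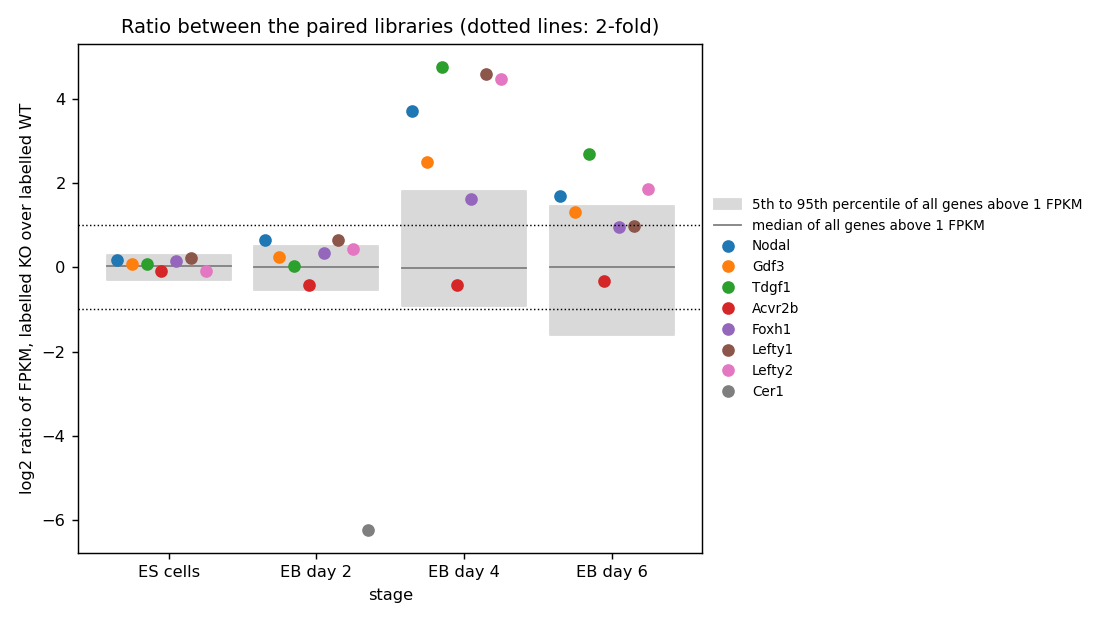
Log2 ratio of FPKM between the library labelled KO and the library labelled WT (vertical axis) at each stage (horizontal axis), with 1 coloured point for each gene that exceeded 1 FPKM in either library. Grey boxes span the 5th to the 95th percentile of all such genes, the grey line is their median and the dotted lines mark 2-fold. At day 4, 5 genes lie above the grey box, and at day 2 *Cer1* lies far below it at -6.23.

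Over the 4 stages taken as pairs, the label difference of each gene was fitted with limma on log2(FPKM + 1) with stage as a block, which leaves 3 residual degrees of freedom. None of 13862 genes (0.0%) had an adjusted p under 0.05, and 1619 had an unadjusted p under 0.05. *Nodal*, *Gdf3*, *Tdgf1*, *Foxh1* and *Lefty1* were higher in the library labelled KO at 4 of 4 stages, *Lefty2* at 3 of 4, and *Acvr2b* and *Cer1* at none. Of all 13862 genes, 14.8% were higher and 11.8% lower at every stage. With the day 4 pair left out, the same 5 were higher and the same 2 lower at 3 of 3 stages, against 19.8% and 15.7% of 13608 genes. The sign of *Cer1* at day 6 rests on 2.78e-05 and 0 FPKM. In ES cells, the log2 ratios of the 7 genes above 1 FPKM lay within the 5th to 95th percentile of all genes, -0.3 to 0.295. Signs alone thus say little about the size of a difference. The fitted differences were 1.44 ± 0.641 (SE, limma adjusted p = 0.41) for *Lefty1*, 1.31 ± 0.453 (0.41) for *Nodal* and -0.28 ± 0.0993 (0.41) for *Acvr2b*. This fit holds the day 4 pair that the choice rests on. Without it, 1 of 13608 genes passed (0.00735%), a microRNA gene that is none of the 8, and *Lefty1* had a difference of 0.60 ± 0.167 (SE, limma adjusted p = 0.68) with a like sign at 3 of 3 stages. None of the 8 genes passed the threshold in either fit, which does not show that their levels were equal.

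Between successive time points, ratios cross tables that were normalized separately. From ES cells to day 2, *Tdgf1*, *Lefty1* and *Lefty2* were more than 2-fold lower under the label WT and *Tdgf1* under the label KO, as were 7.96% and 8.37% of all genes. *Foxh1* was more than 2-fold higher under both labels and *Cer1* under the label WT (5.26% of all genes under the label WT and 6.01% under the label KO). *Cer1* passed the filter through day 2 alone, so nothing is read from its count. With FPKM rescaled to an equal sum per library, *Acvr2b* and *Lefty2* were also lower under the label KO, which made 3 genes, and *Foxh1* was no longer past 2-fold under the label WT. From day 2 to day 4, 7 of 8 genes were more than 2-fold lower under the label WT (13.8% of all genes) and 3 of 7 under the label KO (7.74%), namely *Gdf3*, *Tdgf1* and *Lefty2*. Of the 7 under the label WT, *Tdgf1*, *Lefty2* and *Cer1* passed the filter through day 2 alone. The eighth gene under the label WT, *Acvr2b*, was higher, as it was under the label KO (15.6% and 15.4% of all genes). From day 4 to day 6, 5 of 7 were more than 2-fold higher under the label WT (17.0% of all genes) and 4 of 7 under the label KO (12.4%), and *Acvr2b* was lower under both (9.95% and 11.1%). Of the 5 under the label WT, *Tdgf1* and *Lefty2* passed the filter through day 6 alone. Both of these steps rest on the day 4 libraries, of which the choice used the values of *Lefty1*, and nothing is read from their counts. With day 4 left out, 5 of 8 genes were more than 2-fold lower at day 6 than at day 2 under the label WT (12.4% of all genes), *Cer1* among them through day 2 alone and *Lefty1* not. Under the label KO, *Foxh1* alone of 7 was lower (6.97% of all genes). Comparisons that share a library are not independent of each other.

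The same libraries differed in other gene lists, and these values belong beside each result above. Of 10 genes of ES cells, the library labelled KO had 8 more than 2-fold higher at day 4 (12.1% of all genes) and 7 at day 6 (10.5%). Of the 8, 3 passed the filter through that library alone, and at day 6 all 10 genes were above 1 FPKM with a median log2 ratio of 1.46. *Esrrb*, an ES cell transcription factor, was at 1.53 and 22.5 FPKM at day 4 under the labels WT and KO, while *Sox2*, which neural progenitors also express, was at 83.7 and 85.7 FPKM. The sum of the list was 151 and 361 FPKM at day 4 and 535 and 1271 FPKM at day 6, so that it too was lowest in the day 4 library labelled WT and higher again at day 6. In bulk RNA, fewer cells of a type and less RNA per cell cannot be told apart.

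Markers of fibroblasts, the cells of the feeder layer, were also measured. The library labelled KO had all 7 more than 2-fold higher at day 4 (12.1% of all genes) and 4 of 7 at day 6 (10.5%). At day 4, 5 of the 7 passed the filter through that library alone, *Col1a1* and *Col1a2* being above 1 FPKM under both labels, at 1.23 and 9.74 FPKM and at 1.72 and 6.44 FPKM. The summed level of the 7 was 373 and 406 FPKM in ES cells under the labels WT and KO, 66.8 and 70.0 FPKM at day 2, 5.20 and 34.6 FPKM at day 4, and 51.4 and 133 FPKM at day 6. No marker of the list was at 0 in these libraries, and *Lum*, the lowest of the list there, was at 0.0565 FPKM in the day 4 library labelled WT. The 7 neural progenitor markers ran opposite, with sums of 358 and 63.3 FPKM at day 4, and all 7 were more than 2-fold lower in the library labelled KO (4.44% of all genes) and above 1 FPKM in both libraries. *Hes5*, a target of Notch signalling, was at 71.0 and 3.61 FPKM. The part of these cell types in the values of the Nodal pathway genes was not tested.

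**Figure D3:**
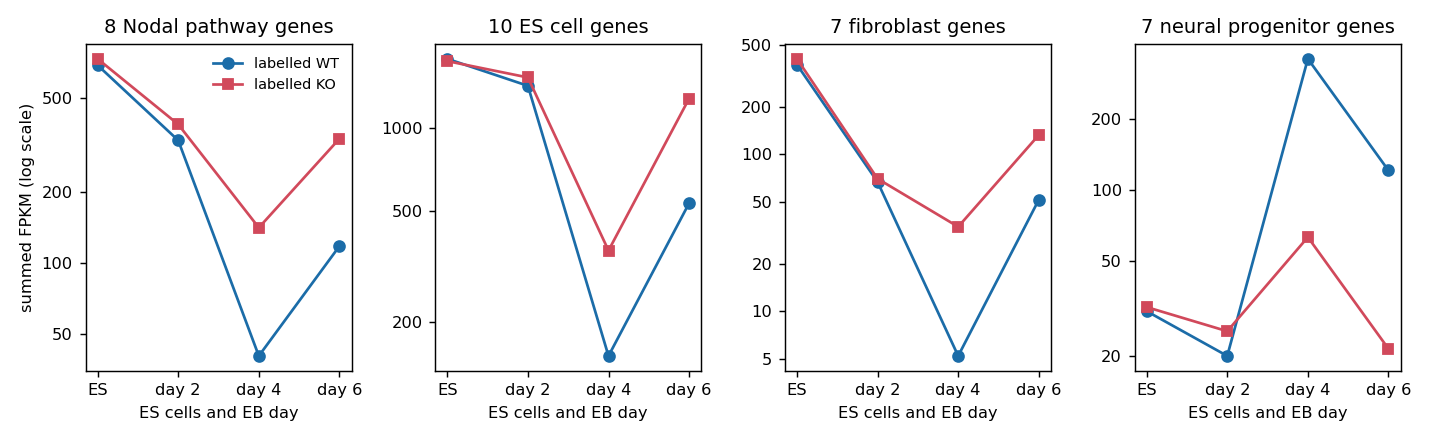
Summed FPKM (vertical axes, log scale) of the 8 Nodal pathway genes, 10 ES cell genes, 7 fibroblast genes and 7 neural progenitor genes in ES cells and EBs (horizontal axis), with circles for libraries labelled WT, squares for libraries labelled KO and 1 library per point. The first 3 sums are lowest in the day 4 library labelled WT, at 40.4, 151 and 5.20 FPKM, and the neural progenitor sum is highest there, at 358 FPKM.

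Visceral and primitive endoderm also express *Lefty1* and *Cer1*. Of 7 markers of these tissues, 5 were above 1 FPKM at day 4 and 5 at day 6. The library labelled KO had 2 of 5 more than 2-fold higher at day 4 (12.1% of all genes) and 2 of 5 at day 6 (10.5%), of which *Amn* passed the filter through that library alone at both days. The sums of the 7 were 9.32 and 12.8 FPKM at day 4 and 10.8 and 21.4 FPKM at day 6. *Gata4* was at 1.44 and 5.34 FPKM at day 4, while *Gata6* was at 2.38 and 1.46 FPKM, *Sox7* at 1.32 and 0.949 FPKM and *Dab2* at 3.13 and 3.24 FPKM. At day 6 each of these was higher under the label KO, *Gata4* at 2.6 and 5.2 FPKM, *Gata6* at 2.5 and 4.8 FPKM. *Sox7* was then at 1.5 and 2.8 FPKM and *Dab2* at 2.9 and 6.3 FPKM. The median log2 ratio of the 5 genes above 1 FPKM at day 6 was 0.99. *Afp* and *Ttr*, which visceral endoderm makes in large amounts, were below 1 FPKM in all 8 culture libraries. Of 4 epiblast genes, 1 of the 2 above 1 FPKM was higher at day 4 (12.1% of all genes) and none was lower, and of the 3 above 1 FPKM at day 6, 1 was higher (10.5%) and 1 lower (9.91%). At day 6 all 6 neuron markers were more than 2-fold lower in the library labelled KO (9.91% of all genes), 4 of them above 1 FPKM under the label WT alone, with sums of 811 and 107 FPKM.

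Most other genes of the pathway differed less than 2-fold between the labels. Of 19 further ligand, receptor, SMAD and antagonist genes, none of the 17 above 1 FPKM passed 2-fold in ES cells or at day 2. At day 4, 3 of 15 were more than 2-fold higher in the library labelled KO, against 12.1% of all genes, and none was lower. These were *Smad7*, an inhibitory SMAD, at 1.33 and 5.23 FPKM under the labels WT and KO, *Skil*, a corepressor of SMADs, at 10.1 and 26.4 FPKM, and *Fst*, which binds activins, at 1.21 and 2.89 FPKM. The list median at day 4 was 0.03 on the log2 scale. At day 6, 4 of 17 were higher, against 10.5% of all genes, and none was lower, *Inhba* passing the filter through the library labelled KO alone. *Inhba* and *Inhbb*, which encode activin subunits, were at 0.391 and 2.39 FPKM and at 1.47 and 7.63 FPKM, *Smad7* at 8.99 and 20.5 FPKM and the convertase gene *Pcsk6* at 6.99 and 14.7 FPKM. The signal transducers stayed within 2-fold between the labels at day 4, with *Smad2* at 12.7 and 12.9 FPKM, *Smad4* at 59.7 and 58.1 FPKM and the type I receptor gene *Acvr1b* at 9.15 and 8.98 FPKM, while *Smad3* was at 24.5 and 18.0 FPKM.

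At day 2 the log2 ratio of *Cer1* was -6.23, or -2.35 with 1 FPKM added to both values, and genes of the mesendoderm, the tissue that Nodal induces, were examined beside it. Of 12 such genes 8 were above 1 FPKM, and 5 of these were more than 2-fold lower (1.37% of all genes) and none was higher in the library labelled KO (1.19%). All 5 passed the filter through the library labelled WT alone, so nothing is read from the count. *T*, the Brachyury gene, was at 12.6 FPKM under the label WT and 0.822 FPKM under the label KO. *Lhx1* was at 1.45 and 0.0562 FPKM, *Foxa2* at 1.79 and 0.125 FPKM. *Fgf8*, a growth factor gene of the primitive streak, had 5.35 and 0.657 FPKM. The fifth, *Gsc*, named after its values were seen, was at 2.04 and 0.273 FPKM. *Eomes* and *Hhex* stayed within 2-fold. *T* and *Fgf8* were already lower in ES cells labelled KO, at 6.86 and 1.75 FPKM and at 5.87 and 1.30 FPKM.

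At day 4, 3 of 6 mesendoderm genes were more than 2-fold higher in the library labelled KO (12.1% of all genes) and none was lower, among them *Wnt3* at 0.753 and 4.10 FPKM. Of these 3, 2 passed the filter through that library alone. At day 6, 2 of 8 were higher (10.5% of all genes) and 1 lower (9.91%), with *Eomes* at 1.77 and 7.09 FPKM. *Wnt3*, the other higher gene, and *Lhx1*, the lower one, each passed the filter through 1 library alone. *T* and *Cer1* were below 1 FPKM in both libraries from day 4 on. At day 2 neither the ES cell genes nor the fibroblast genes passed 2-fold in either direction, with summed levels of 1412 and 1513 FPKM and of 66.8 and 70.0 FPKM.

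**Figure D4:**
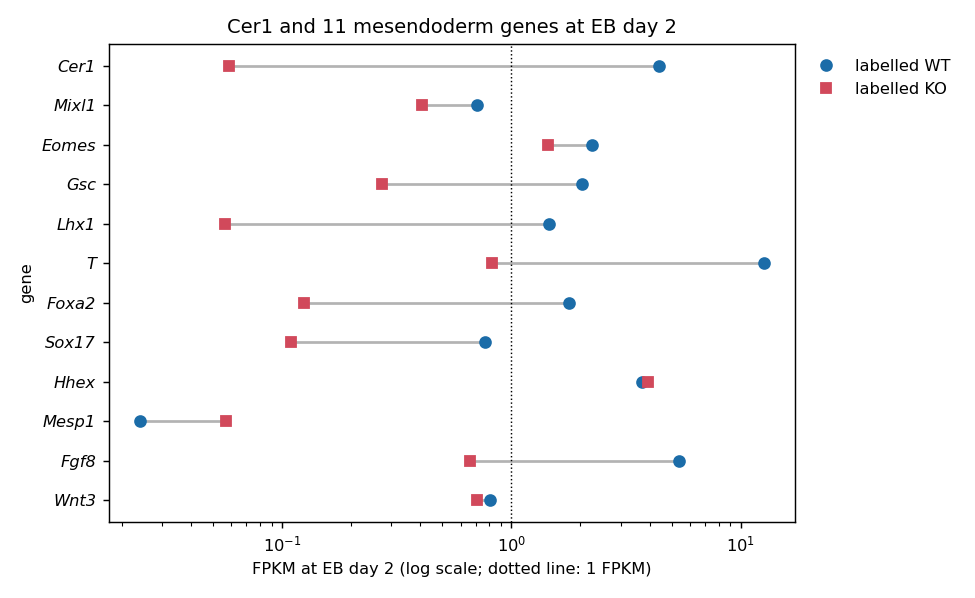
FPKM at EB day 2 (horizontal axis, log scale) of *Cer1* and 11 of the mesendoderm genes (vertical axis), with a circle for the library labelled WT and a square for the library labelled KO, joined by a line, and 1 library each. *Cer1* (4.40 and 0.0588 FPKM), *Lhx1*, *T*, *Foxa2*, *Fgf8* and *Gsc* are more than 2-fold lower in the library labelled KO, and the dotted line marks 1 FPKM.

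In newborn tissue the levels were low. All genes but *Acvr2b* were below 1 FPKM in spinal column of both labels and in spinal cord. *Lefty1* was at 0.347 and 0.782 FPKM in spinal column labelled WT and KO and at 0.334 FPKM in spinal cord, and *Nodal* at 0.0334 FPKM, listed at 0, and at 0.0229 FPKM. *Acvr2b* was at 1.91 and 1.30 FPKM in spinal column and at 4.83 FPKM in spinal cord. The fibroblast markers of the same spinal column libraries summed to at least 2950.0 FPKM under both labels.

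The likeness of other genes to *Lefty1* was described by Pearson's r of log2(FPKM + 1) over the 8 libraries of ES cells and EBs, which come from 2 clones and 4 stages and are not independent. Of 10475 other genes above 5 FPKM in at least 1 library, the 5 most alike included *Tfap2c* (r = 0.989), *Naa11* (0.981), *Sox15* (0.976) and *Hspb8* (0.976). *Tfap2c*, which encodes the transcription factor AP-2γ, was at 42.1, 22.1, 1.97 and 19.4 FPKM under the label WT and at 50.3, 29.0, 25 and 42.2 FPKM under the label KO. Among the pathway genes, r to *Lefty1* was 0.957 for *Nodal*, 0.887 for *Lefty2*, 0.838 for *Gdf3*, 0.816 for *Tdgf1*, 0.429 for *Foxh1* and -0.66 for *Acvr2b*. *Nodal* would thus stand at rank 14 and *Lefty2* at rank 129 among the other genes. Genes of the other lists, named after their values were seen, were as alike, with r of 0.957 for the ES cell gene *Nanog* (rank 13), 0.834 for *Pou5f1* and 0.812 for the fibroblast gene *Col1a1*. The genes most alike to *Nodal* were *Mvp* (0.988), *Sox15* (0.986), *Lgals9* (0.984), *Dppa2* (0.979) and *Serpinb6a* (0.979). These orders rest on the day 4 library labelled WT. Without it, r to *Lefty1* was 0.719 for *Nodal*, 0.638 for *Lefty2* and -0.34 for *Foxh1*, below 0.871 for *Nanog* and 0.826 for *Col1a1*, and none of the 5 genes most alike to *Lefty1* or to *Nodal* was the same.

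Binding of TAF9B and RNA polymerase II (POL2) was mapped by ChIP-seq in EB motor neurons of another WT line, the HBG3 clone, which carries a GFP reporter under the *Mnx1* promoter, with 1 library per factor. These EBs were differentiated for longer than the last RNA-seq time point, so peaks and expression come from different stages as well as lines. The authors' lists hold 10415 TAF9B and 8620 POL2 peaks. No gene of the 8 had a midpoint of either kind of peak within 500 bp of a GENCODE start site, against 30.3% (TAF9B) and 53.7% (POL2) of 11037 genes above 1 FPKM at day 6. Within 50 kb, 5 of 8 had a TAF9B peak (68.5% of those genes) and 6 of 8 a POL2 peak (76.1%). *Cer1*, counted in both, was itself below 1 FPKM at day 6, so the 8 genes and the shares do not follow the same filter. A gene without a listed peak may still be bound below the threshold of the peak calls.

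The TAF9B peak nearest to *Foxh1* (chr15:76501967-76502121, score 59.7) was 1.67 kb upstream of it and 1 bp from the start of *Ppp1r16a*. The TAF9B peaks nearest to *Lefty1* were 30.8 and 30.5 kb upstream of it, with scores of 137 and 81.3. *Nodal* had its nearest TAF9B peak at 57.8 kb, at the start of *Lrrc20*, and *Gdf3* and *Tdgf1* had neither kind of peak within 100 kb. *Acvr2b* had a POL2 peak 0.886 kb downstream of its start, within an intron (chr9:119311934-119313077, score 115).

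**Figure D5:**
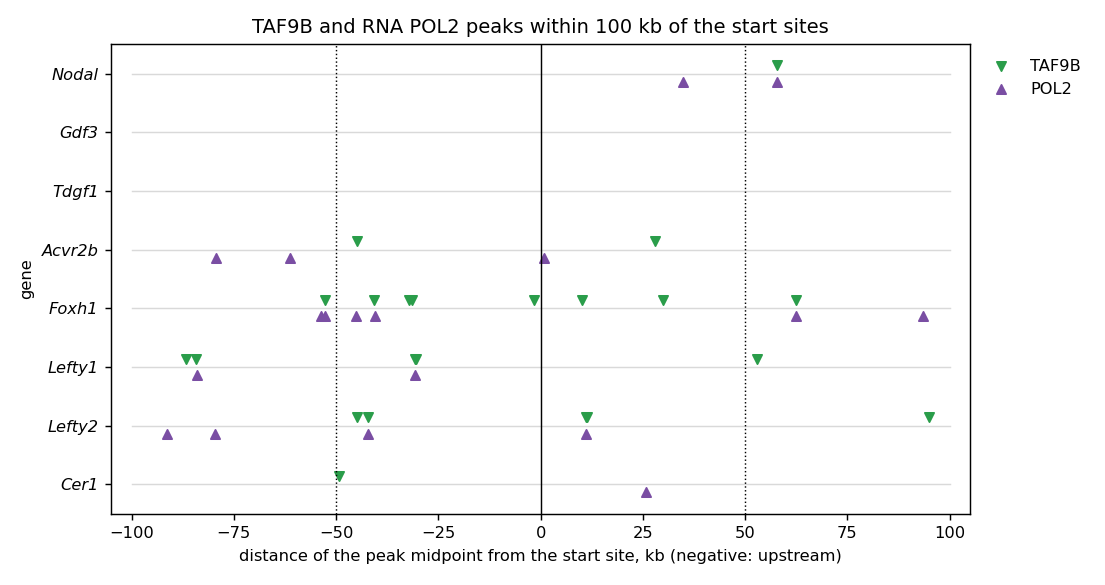
Distance in kb of TAF9B peaks (downward triangles) and POL2 peaks (upward triangles) from the nearest start site of each of the 8 genes (horizontal axis, negative values upstream), with 1 row per gene and dotted lines at 50 kb. *Acvr2b* has a POL2 peak 0.886 kb from its start, *Foxh1* a TAF9B peak 1.67 kb from its start, and the rows of *Gdf3* and *Tdgf1* are empty.

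*Acvr2b* was also the gene of the 8 that held a TAF9B peak within its body. This peak (mm9 chr9:119339505-119339723, plus strand shown) was in an intron, 28.0 kb from the start, with a score of 145, and did not overlap a POL2 peak. Its sequence is given in full because it is the single TAF9B peak listed inside any of the 8 genes, and it held no match to the motifs searched below.
Acvr2b TAF9B peak: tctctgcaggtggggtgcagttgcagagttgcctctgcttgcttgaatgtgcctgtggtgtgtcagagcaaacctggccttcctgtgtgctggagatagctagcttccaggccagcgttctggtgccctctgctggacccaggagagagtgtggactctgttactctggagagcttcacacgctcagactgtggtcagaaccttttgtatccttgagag

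Promoters from 250 bases before to 50 bases after the start were taken from RefSeq (build GRCm38.p6), where 4 of the 8 genes matched, *Nodal*, *Tdgf1*, *Acvr2b* and *Cer1*. They were searched on both strands for the FOXH1 motif (TGTGGATT, TGTTGATT or TGTGTATT), the SMAD palindrome GTCTAGAC and the SMAD motif CAGACA. Of 32851 promoters in the table, 2.64%, 0.213% and 21.0% held them. *Cer1* held 1 SMAD motif, which begins 213 bases before the start, and the other 3 promoters held no match. The 250 bases before the start of *Cer1* (chr4:82885152-82885401, minus strand) and *Nodal* (chr10:61417722-61417971, plus strand) are shown, as the inhibitor and the ligand whose levels parted most at day 2, with the match in capitals.
Cer1: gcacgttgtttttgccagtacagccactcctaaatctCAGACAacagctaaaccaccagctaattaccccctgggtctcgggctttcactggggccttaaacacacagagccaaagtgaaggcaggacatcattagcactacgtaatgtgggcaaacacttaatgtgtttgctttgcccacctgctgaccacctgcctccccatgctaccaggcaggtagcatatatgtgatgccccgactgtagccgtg
Nodal: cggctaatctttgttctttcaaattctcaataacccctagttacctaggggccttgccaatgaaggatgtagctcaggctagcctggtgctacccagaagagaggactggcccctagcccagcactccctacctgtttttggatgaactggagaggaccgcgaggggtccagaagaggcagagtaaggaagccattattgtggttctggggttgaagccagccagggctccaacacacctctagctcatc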

How the data were processed

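RNA-seq tables of 11 libraries and 2 ChIP-seq peak lists were used. According to the study's methods, the authors mapped poly-A reads against RefSeq genes with TopHat and computed FPKM values with Cuffdiff, for 1 pair of libraries at a time, and the deposited FPKM were used without further normalization. The peak score is the MACS score deposited by the authors after mapping with Bowtie to mm9. Tool versions were not given in the sources used here. The fold-change and p-value columns that the authors deposited hold their own Cuffdiff comparisons and were not used. Loci were joined between tables by first accession and position. This left out 43 rows with a repeated key, and 98.6% of the other 23109 loci had a symbol.

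Log2 ratios carry no pseudocount. With 1 library per condition, no error or test was possible within a stage. Over the stages, the label difference was fitted with limma 3.58.1 (R 4.3.3) on log2(FPKM + 1) with stage as a block, with Benjamini-Hochberg adjustment over all loci, a test chosen after seeing the data. The number of reads behind a value is unknown. No library was left out of the values by library. A gene was counted past 2-fold if above 1 FPKM in at least 1 library. Named genes are all 8 pathway genes and, of each other list, at most 4 per comparison with the highest or lowest ratios past 2-fold, others being named as contrasts after their values were seen. For likeness, genes with the 5 highest r are named. Some genes and a sequence that these rules would give are not reported here. The genes and lists were chosen with earlier results of these data known. The alternatives were a pseudocount of 1 FPKM, centring, rescaling, other filters, a 3-fold limit, other peak windows and scores, and, chosen after seeing the data, leaving out day 4. Counting, likeness and peak distances were tested on simulated data. The genome and annotation were NCBIM37 and GENCODE vM1. Python 3.11.15 was used with numpy 2.4.6, pandas 2.3.3, Biopython 1.88 and matplotlib 3.10.9.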

Additional observations from a re-analysis of the deposited data

How the results depend on the processing

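In the limma fit with stage as a block, the number of the 8 genes with an adjusted p under 0.05 was 0 with and without day 4. The 74 gene ratios were recomputed under a pseudocount of 1 FPKM and under rescaling to an equal sum per library. Those within pairs were also centred on all genes. Of the 178 values this gave, which are not independent, none changed sign past the limit. Among them, 172 kept their side of 2-fold, 5 passed it and 1 dropped below it, all 6 under rescaling. At day 6, rescaling put *Foxh1* and *Lefty1* past 2-fold, at log2 ratios of 1.02 and 1.04. The count of genes higher at day 4, which comes from the stage of the choice, was 6, or 4 with 1 FPKM required in both libraries. The count at day 6 was 4, or 3 at 3-fold and 6 with rescaling. Without a filter, 1 gene was lower in ES cells and 1 at day 6, *Cer1* in each case. In spinal column 1 was lower, *Nodal*, and 2 were higher, *Foxh1* and *Lefty1*. All of these were below 1 FPKM in both libraries. Shares of all genes were not computed for other filters, the 3-fold limit or rescaling, so nothing is read from those counts. Requiring 1 FPKM in both libraries left 0 genes lower at day 2. Rescaling gave 1 gene lower in spinal column, 1 higher from ES cells to day 2 under the label WT and 3 lower under the label KO. Leaving out day 4 gave 0 genes higher under both labels and 1 lower under the label KO from day 2 to day 6, and leaving out its library labelled WT kept 0 of the 5 genes most alike to *Lefty1*. Within 20 kb, 2 genes had a TAF9B peak (51.9% of all genes above 1 FPKM at day 6) and 2 a POL2 peak (66.3%), and 3 had a POL2 peak scoring above the median within 50 kb (54.5%). The cause of these shifts was not tested.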
